A study of Mus musculus with 6 samples.

Results

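Nr4a1, Nr4a2, Nr4a3, Egr1, Egr2, Egr3, Cd69, Myc and Tox are genes that T cells switch on, or keep on, after their antigen receptor (TCR) is engaged. These 9 genes, of 14098 in the deposited table, were followed across splenic regulatory T (Treg) cells. They were taken by name, with earlier results of these data known. The cell states across which they are compared were set by transcripts of other genes, also chosen with those results known. Single EGFP-positive Treg cells were sorted from spleens of C57BL/6 mice aged 18 to 21 weeks, and 3′ ends of their transcripts were counted with unique molecular identifiers (UMIs). All mice had received tamoxifen and carried Foxp3EGFP-Cre-ERT2, an EGFP and tamoxifen-inducible Cre construct driven by Foxp3. In 3 samples both Bach2 alleles were flanked by loxP sites (Bach2fl/fl, cKO), and in the other 3 Bach2 was wild type (Bach2+/+, WT). No cell column names its sample, so genotypes were not compared and the table counts as 1 sample. The cells carry 6 barcode suffixes (sets 1 to 6). Values are given over these 6 sets as a spread, with no p-value, since the source of each set is not known.

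The TCR signal reaches the nucleus through calcium, MAP kinase and NF-kB pathways. Egr1, Egr2 and Egr3 encode zinc-finger factors induced within this first wave, and Nr4a1 (Nur77), Nr4a2 (Nurr1) and Nr4a3 (Nor1) encode orphan nuclear receptors whose transcripts rise rapidly and decay quickly. Cd69 is an early surface marker that holds lymphocytes in tissue by antagonising the receptor S1pr1, Myc drives growth and ribosome production, and Tox is a DNA-binding protein that is sustained under chronic stimulation. In Treg cells, TCR signals maintain the effector programme, and Nr4a factors take part in Foxp3 expression.

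The genes lie on 7 chromosomes of the mouse genome (GRCm38, GENCODE M21 annotation), all protein coding. Nr4a1 is at chr15:101254269-101274795, Nr4a2 at chr2:57106830-57124003, Nr4a3 at chr4:48045153-48086447 and Egr2 at chr10:67535475-67542188. Egr3 is at chr14:70077203-70082614, Cd69 at chr6:129267325-129275436, Myc at chr15:61985391-61990374 and Tox at chr4:6686353-6991557. Tox alone overlaps another annotated gene, the antisense transcript Gm11802, away from the 3′ end that the assay counts.

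The 3 Nr4a promoters are shown because they share a sequence feature. Of the 3, Nr4a1 was called higher in Tnfrsf9-like cells, and the other two had too few UMIs for a call. Promoter windows of 250 bases before the RefSeq start (GRCm38.p6) were found for 4 of the 9 genes, Nr4a1, Nr4a2, Nr4a3 and Egr2. Letters run 5′ to 3′ on the gene's strand. Capitals mark the core letters of the cAMP response element (TGACG, which reads CGTCA on the other strand) and the Egr site (GCGNGGGCG, on either strand). The Nr4a1 and Nr4a3 windows sit at RefSeq starts that lie inside the longer GENCODE genes. All of the Nr4a1 window and the Nr4a3 window from base 48045153, with its core at -147, are thus within the annotated genes.
Nr4a1, chr15:101266596-101266845, plus strand: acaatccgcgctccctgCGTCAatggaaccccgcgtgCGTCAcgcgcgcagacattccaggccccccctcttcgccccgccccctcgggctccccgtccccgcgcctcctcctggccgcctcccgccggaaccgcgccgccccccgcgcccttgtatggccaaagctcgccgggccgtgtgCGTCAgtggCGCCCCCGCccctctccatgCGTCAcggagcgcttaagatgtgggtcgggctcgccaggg
Nr4a2, chr2:57124004-57124253, minus strand: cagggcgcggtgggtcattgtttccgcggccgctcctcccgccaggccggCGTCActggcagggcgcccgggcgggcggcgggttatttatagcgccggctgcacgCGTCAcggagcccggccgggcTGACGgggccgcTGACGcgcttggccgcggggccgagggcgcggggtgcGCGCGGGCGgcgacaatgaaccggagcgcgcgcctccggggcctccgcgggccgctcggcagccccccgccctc
Nr4a3, chr4:48045055-48045304, plus strand: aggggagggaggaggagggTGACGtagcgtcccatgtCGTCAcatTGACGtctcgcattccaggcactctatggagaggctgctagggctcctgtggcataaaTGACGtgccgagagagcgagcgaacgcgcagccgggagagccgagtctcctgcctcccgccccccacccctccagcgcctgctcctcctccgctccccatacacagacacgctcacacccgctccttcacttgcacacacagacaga
Each of the 3 windows held 4 such cores, which 0.138% of 32536 such windows did, while 17.9% held at least 1. Nr4a1 and Nr4a2 also held 1 Egr site each, found in 4.74% of windows, and the Egr2 window held neither motif. Also searched were the full cAMP response element and the AP-1, NFAT, CArG and NF-kB motifs. Of these the Nr4a windows held only 1 NFAT core, in Nr4a2, which 55.7% of windows held. The Egr2 window held 2 overlapping NF-kB matches, as many as 1.04% of windows. The Nr4a windows were richer in G and C (63.6% to 80.0%) than the median window (52.4%), and GC content was not matched in these shares. A match is a description of letters only, and no binding was measured.

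The table held 10685 cells and 25389602 UMIs, in sets of 1641 to 1902 cells and 3998172 to 4786590 UMIs, with a median of 2000 to 2229 UMIs per cell. Cells with markers of B cells (91), myeloid cells (35) or red cells (4) were set aside, leaving 10555 Treg cells. Of these, 10245 had at least 1000 UMIs and were thinned to 1000 to give each a state from marker UMIs. The resting-like state (Ccr7, Lef1 and Tcf7 among its markers) had 1344 cells. The Tnfrsf9-like state (Tnfrsf9, Tnfrsf4, Cd83, Traf1 and 4 others), named for a costimulatory receptor of activated Treg cells, had 1105. There were 957 S100a4-like, 675 Ccl5-like, 435 Il2ra-like, 320 interferon-like and 77 cycling-like cells, and 5332 passed no limit. The sort was for Treg cells, and Foxp3 was detected in each state at 17.2 to 34.8 UMIs per 1000000 UMIs (CPM), beside Ikzf2 at 528 to 1530 CPM and Cd3e at 621 to 888 CPM. Across the sets 63 barcodes occurred more than once (126 cells).

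Transcripts of the 9 genes were sparse. Tox gave 4264 UMIs, Cd69 2998, Myc 1177, Egr1 900, Nr4a1 675, Egr2 436, Nr4a3 184, Nr4a2 97 and Egr3 30, which sets how finely each can be read. In the 6 sets of Treg cells the Nr4a1 level had a lowest, median and highest value of 19.0, 24.4 and 39.1 CPM, Egr1 28.1, 33.2 and 45.3 CPM, and Tox 143, 159 and 206 CPM. Egr2 varied less, from 14.6 to 19.2 CPM with a median of 17.3 CPM, as did Cd69 (104, 117 and 137 CPM) and Myc (39.3, 47.6 and 53.0 CPM). Nr4a3 ran from 2.64 to 9.89 CPM and Nr4a2 from 2.64 to 6.27 CPM. At 1000 UMIs per cell, 15.7% of Treg cells had a Tox UMI, 11.2% Cd69, 3.88% Myc, 3.39% Egr1, 2.25% Nr4a1 and 1.57% Egr2 (29.5%, 21.0%, 8.91%, 7.25%, 4.72% and 3.06% without thinning). Among 116 B and myeloid cells treated the same way, Egr1 and Egr2 were in 0 cells (at most 3.13% by the exact interval), Tox in 3.45%, Cd69 in 8.62% and Nr4a1 in 2.59%, with median depths of 2026 UMIs there and 2091 in Treg cells. Of these, Tox alone had intervals apart from those of Treg cells (0.947% to 8.59% against 15.0% to 16.4%), and Egr1, Egr2, Cd69 and Nr4a1 were not told apart from the B and myeloid cells in this way beyond the limit that 116 cells set. Without thinning, the cells set aside had Egr2 in 3.17%, Egr1 in 1.59%, Tox in 12.7%, Cd69 in 20.6% and Nr4a1 in 4.76%. B and myeloid cells can themselves express Nr4a1 and Cd69, so they do not serve as cells that lack these genes. Among Treg states, the pooled Nr4a1 share was 4.43% of Tnfrsf9-like cells (exact 95% interval 3.30% to 5.82%) and 1.25% of S100a4-like cells (0.650% to 2.18%). Cycling-like cells had the highest pooled share, 5.19% (1.43% to 12.8%), and interferon-like cells the lowest, 0.938% (0.194% to 2.72%). These intervals cover counting error over cells only, and cells are not replicates.

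Tnfrsf9-like cells had more Nr4a1, Egr2, Myc and Tox transcript than resting-like cells, by 2.86-fold, 4.89-fold, 1.52-fold and 2.91-fold. Nr4a2 and Nr4a3 were higher in 6 of 6 sets as well, on few UMIs, and Cd69 was higher by less than 1.5-fold. Egr1 was higher in 4 of 6 sets and not called. A gene was called when the pooled ratio reached 1.5-fold, all 6 sets agreed in direction and at least 100 UMIs lay in the 2 states together. By this rule 4 of the 9 genes were called higher and 0 lower, where 10.9% of 5474 genes were higher and 2.63% lower. Of the 9, 6 had the 100 UMIs. The median gene itself stood 0.22 higher on the log2 scale. Relative to it, 3 of the 9 were higher and 0 lower (5.57% and 5.83% of all genes), and Myc, at 0.38, was no longer among them.

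**Figure D1:**
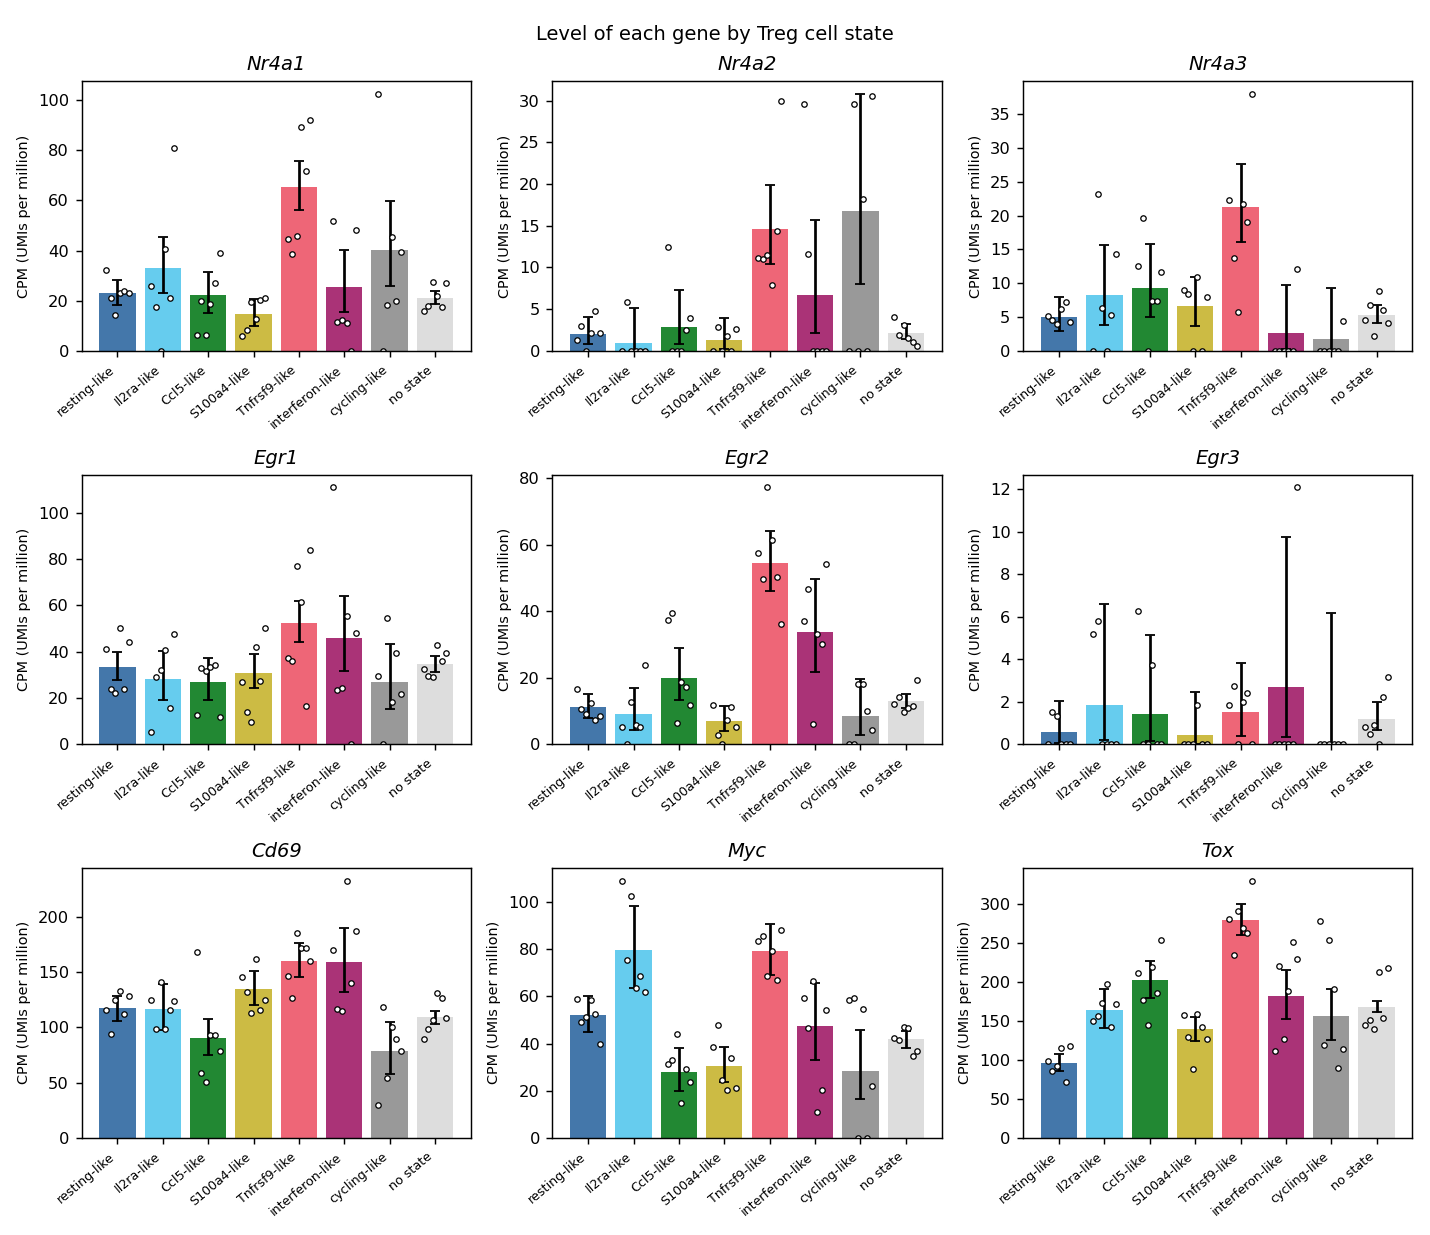
Level of each gene (vertical axis, CPM of UMIs summed over the cells of a state) in 7 cell states and in cells of no state. Bars are pooled values with exact 95% Poisson intervals, which cover counting error only, and open circles are sets 1 to 6 from left to right; the Tnfrsf9-like bar is 65.5 CPM for Nr4a1, 54.6 CPM for Egr2 and 280.3 CPM for Tox.

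Among the nuclear receptors, Nr4a1 in resting-like cells had a lowest, median and highest set value of 14.4, 23.0 and 32.1 CPM, and in Tnfrsf9-like cells 38.6, 58.8 and 92.1 CPM. The 2 ranges did not overlap, and the log2 ratio was 1.52 (95% interval 1.13 to 1.91 for counting error; 0.475 to 1.94 over the sets). Tnfrsf9-like cells held 26.4% of all Nr4a1 UMIs in scored cells but 10.8% of all UMIs. The neighbouring levels, 40.2 CPM in cycling-like and 32.9 CPM in Il2ra-like cells, rested on 24 and 36 UMIs, and their intervals overlapped with each other. The cycling-like interval (25.8 to 59.9 CPM) also overlapped with the Tnfrsf9-like one (56.1 to 75.9 CPM). The highest single sets, at 102.6 CPM in cycling-like and 80.9 CPM in Il2ra-like cells, reached the Tnfrsf9-like set values. Resting-like (22.9 CPM), Ccl5-like (22.1 CPM), interferon-like (25.6 CPM) and no-state cells (21.3 CPM) could not be ordered. S100a4-like cells had the lowest pooled level, 14.6 CPM, with an interval that overlapped with those 4.

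Nr4a2, a close relative of Nr4a1, ranged from 7.93 to 30.0 CPM over the sets of Tnfrsf9-like cells, with a median of 11.3 CPM. In resting-like cells it ranged from 0 to 4.79 CPM. The sets did not overlap, although the contrast was 39 against 7 UMIs (log2 ratio 2.90, 1.72 to 4.31). Tnfrsf9-like cells held 40.6% of its UMIs. The pooled level in cycling-like cells, 16.8 CPM, rested on 10 UMIs and 77 cells.

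Nr4a3 had set values of 5.72, 20.5 and 38.0 CPM (lowest, median, highest) in Tnfrsf9-like cells and 3.94, 4.81 and 7.18 CPM in resting-like cells. Its ranges overlapped because set 3 was low among the Tnfrsf9-like sets, yet the ratio within each set was above 1. The pooled log2 ratio was 2.09 (1.30 to 2.94) on 57 against 18 UMIs.

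Of the Egr factors, Egr2 showed the wider gap. Its set values in resting-like cells were 7.18, 9.82 and 16.7 CPM, and in Tnfrsf9-like cells 36.0, 53.9 and 77.3 CPM. Every Tnfrsf9-like set lay above every resting-like set, with a log2 ratio of 2.29 (1.78 to 2.83) and a lowest set value of 1.76. Interferon-like cells came next at 33.7 CPM (25 UMIs; 6.07 to 54.3 CPM over sets), higher than resting-like cells in 5 of 6 sets. Their interval (21.8 to 49.8 CPM) overlapped with that of Tnfrsf9-like cells (46.1 to 64.3 CPM), and so did the set values. Ccl5-like cells were at 19.9 CPM. S100a4-like cells, at 7.07 CPM, had the lowest pooled Egr2 level, and its interval overlapped with that of resting-like, Il2ra-like, cycling-like and no-state cells.

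Egr1 covered 22.3, 32.5 and 50.1 CPM over the resting-like sets and 16.7, 49.3 and 84.1 CPM over the Tnfrsf9-like sets. The Tnfrsf9-like sets spread around the resting-like ones on both sides. The log2 ratio, 0.65 (0.28 to 1.01), was positive in 4 of 6 sets and ran from -0.49 to 1.78. With another random thinning (0.92) or thinning to 500 UMIs (0.78) Egr1 was called higher, so its call depended on the thinning. Egr3, with 30 UMIs in all, reached at most 2.70 CPM in any state and gave no usable ratio.

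Cd69 was at 94.2, 120.1 and 133.5 CPM over the resting-like sets and at 127, 166 and 186 CPM over the Tnfrsf9-like sets. These ranges overlapped in part. The log2 ratio of 0.45 (0.26 to 0.65) had the same sign in 6 of 6 sets but was under 1.5-fold, and relative to the median gene it was 0.23. Interferon-like cells had a like level of 159 CPM, and Ccl5-like (90.4 CPM) and cycling-like cells (78.8 CPM) were lowest.

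Myc was at 40.0, 51.9 and 59.1 CPM over the resting-like sets and 66.9, 81.5 and 88.1 CPM over the Tnfrsf9-like sets, without overlap. The log2 ratio of 0.60 (0.31 to 0.90) lay just past the 1.5-fold limit, and the call was made in 7 of 18 other settings. It was lost without set 2 and without set 6, with 3 genes then called. Il2ra-like cells had as much Myc, 79.6 CPM (61.9 to 109.1 CPM over sets). Tox, by contrast, was at 71.8, 95.4 and 117.9 CPM in resting-like sets and 235, 275 and 330.3 CPM in Tnfrsf9-like sets. The lowest Tnfrsf9-like set was above the highest resting-like set by a wide margin, and the log2 ratio was 1.54 (1.36 to 1.73; 1.22 to 1.86 over sets).

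**Figure D2:**
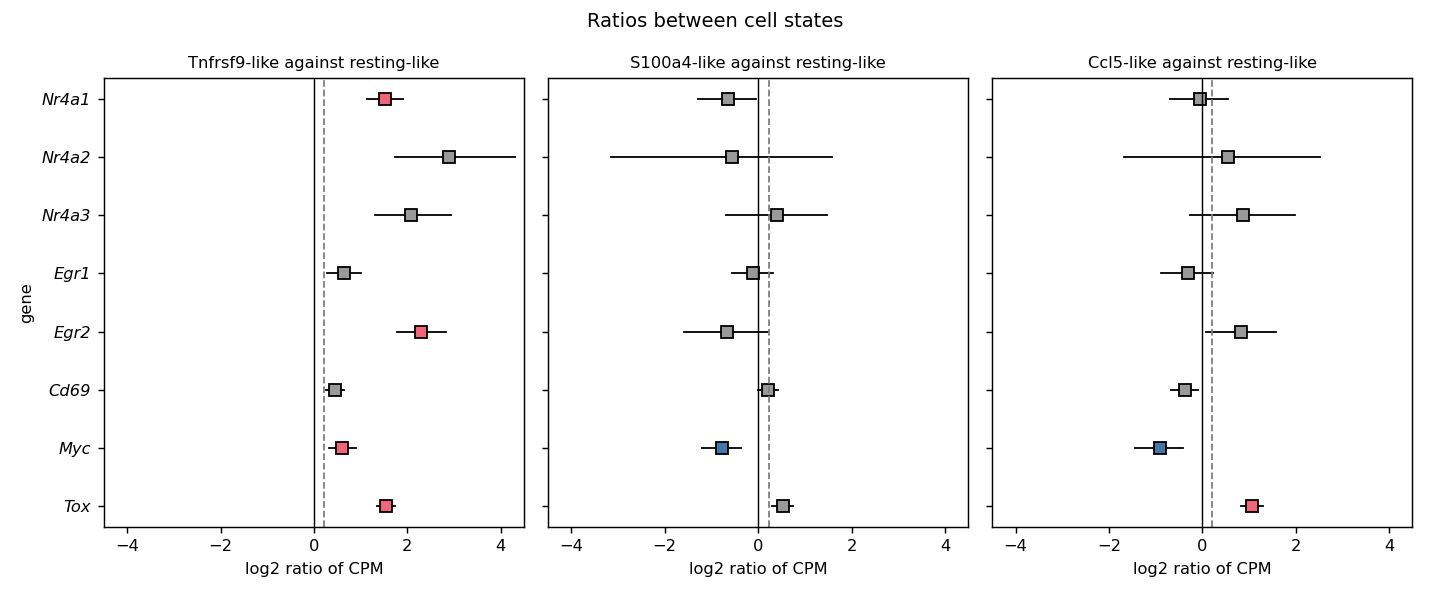
Log2 ratio of CPM (horizontal axis) of 8 genes in Tnfrsf9-like, S100a4-like and Ccl5-like cells against the same resting-like cells. Squares are pooled ratios (red called higher, blue called lower, grey not called), lines are exact 95% intervals for counting error and the dashed line is the median gene; Myc is at 0.60 in the first panel and at -0.78 and -0.91 in the other 2.

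Other states were compared with the same resting-like cells, and Tnfrsf9-like cells were compared directly with S100a4-like cells alone. The comparisons with resting-like cells share those cells, so they are given side by side. In S100a4-like cells, marked by S100 proteins, Ccr2 and integrin Itgb1, Myc was lower (log2 ratio -0.78, -1.20 to -0.37; 20.1 to 47.7 CPM over sets), and it was the 1 gene of the 9 called, where 9.83% of 5238 genes were called higher and 1.76% lower. Nr4a1 (-0.65) and Egr2 (-0.66) were lower in 5 of 6 sets and not called, and Tox was 1.45-fold higher in 5 of 6 sets. In Ccl5-like cells, marked by Ccl5, Maf and Cxcr3, Tox was higher (1.07, 0.84 to 1.30) and Myc lower (-0.91, -1.45 to -0.41), beside a background of 9.18% higher and 1.78% lower among 4663 genes. Their Tox level of 145 to 254 CPM did not overlap with that of the resting-like sets.

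Il2ra-like cells, marked by the high-affinity IL-2 receptor chain, had more Myc (0.61, 0.22 to 0.98) and Tox (0.77, 0.51 to 1.04) than resting-like cells, where 2.73% of 4388 genes were called higher and 1.05% lower. Relative to the median gene Tox was called there and Myc was not (1.87% higher and 1.37% lower). Nr4a1 (0.53) differed in direction between sets there, with 2 of 6 higher. Interferon-like cells had more Tox (0.92, 0.62 to 1.21), the 1 gene called beside a background of 4.38% higher and 0.698% lower. In cycling-like cells 0 of the 9 were called (background 15.9% higher, 4.47% lower), with 77 cells and a deeper median of 7138 UMIs. Against S100a4-like cells, Tnfrsf9-like cells had more Nr4a1 (2.17, 1.62 to 2.75), Egr2 (2.95, 2.20 to 3.79), Myc (1.38, 0.98 to 1.79) and Tox (1.01, 0.82 to 1.20). Those 4 of 9 stand beside 5.69% of 5024 genes called higher and 6.33% lower, with the median gene at 0.00.

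Markers and quality moved with these states. UMIs of 17 immediate early and stress genes made up 0.398% of all UMIs in Tnfrsf9-like and 0.278% in resting-like cells, and ribosomal protein genes 32.5% and 40.9%. Summed markers of myeloid cells (6 of 7 with UMIs in each state, C1qb at 0 in Tnfrsf9-like and Csf1r at 0 in resting-like cells) were at 168 to 228 CPM over sets against 95.7 to 148 CPM. Those of B cells (5 of 7 in the table) were at 38.3 to 57.2 CPM against 35.4 to 52.1 CPM. The part of other cells in the ratios was not tested directly. Without cells holding Cd79a, Lyz2, Cd8a or Hbb-bs UMIs and without the deepest 2% of cells, Nr4a1, Egr2 and Tox were still called higher in Tnfrsf9-like cells.

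Other genes of the pathway were taken as lists, read by the same rule and beside the same background (10.9% of all genes higher, 2.63% lower). The Tnfrsf9-like state was set by markers that include a costimulatory receptor of activated Treg cells. Markers and lists were chosen with earlier results known, so more TCR response transcripts there only describe that state. Of 16 measured TCR response genes outside the 9, 11 were higher in Tnfrsf9-like than in resting-like cells and 0 lower, with a median log2 ratio of 1.28 against 0.22 for all genes. They included the chemokine receptor Ccr8 (2.94), the AP-1 factor Batf (2.50), the NF-kB regulator Nfkbid (2.15) and Gadd45b (1.97). In Ccl5-like cells 7 of 13 genes of this list were higher and 0 lower (9.18% and 1.78% of all genes). In S100a4-like cells 4 of 15 were higher and 0 lower (9.83% and 1.76%). Relative to the median gene, 3 of 13 were higher in Ccl5-like and 2 of 15 in S100a4-like cells, where the share of all genes is not given here. In Tnfrsf9-like cells 10 of 16 were higher in this way (5.57% of all genes). Among 17 feedback inhibitors of TCR signalling 7 were higher and 1 lower, led by the inhibitory receptor Lag3 (2.53) and the NF-kB inhibitor Nfkbia (1.56), with the adaptor Sh2d2a (0.87) and the MAP kinase phosphatase Dusp2 (0.83). Relative to the median gene the feedback list had 4 higher and 1 lower (5.57% and 5.83% of all genes). Of 13 measured immediate early and stress genes, 4 were higher and 1 lower, with Junb at 1.25, Ier5 at 1.24, Dusp1 at 1.13 and Hsp90aa1 at 0.76.

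Tox is known with inhibitory receptors in chronically stimulated T cells. Of 6 measured relatives of Tox and inhibitory receptors 5 were higher (10.9% of all genes), with a median of 1.16. Pdcd1, which encodes PD-1, was at 2.35, Cd160 at 2.20, Btla at 1.17 and Tigit at 1.14. For Cd69, the list of 5 egress genes went the other way, 4 of 5 lower and 0 higher (2.63% and 10.9% of all genes). Klf2, the factor that drives S1pr1, was at -2.22 (168 CPM against 783 CPM), S1pr1 itself at -1.91 (51.3 CPM against 193 CPM), Klf3 at -0.86 and Klf13 at -0.80. Against S100a4-like cells all 5 of 5 were lower (6.33% of all genes), with S1pr4 at -1.75. Lower egress genes were not particular to Tnfrsf9-like cells. Against resting-like cells, 3 of 5 were lower in Il2ra-like cells (1.05% of all genes), with Cd69 at -0.0015. In Ccl5-like cells 3 of 5 were lower (1.78%), with Cd69 at -0.37. In S100a4-like cells 2 of 5 were higher (9.83%), with Cd69 at 0.21. A link of these genes to Cd69 was not tested.

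Partners and targets of Myc moved on a smaller scale. Of 20 measured, 9 were higher and 0 lower in Tnfrsf9-like than in resting-like cells (10.9% and 2.63% of all genes). Relative to the median gene 1 was higher (5.57% of all genes). The polyamine enzyme Odc1 was at 1.71, and the nucleolar genes Nolc1 and Gnl3 at 0.86 and 0.80, with the DNA repair gene Apex1 at 0.76. Against S100a4-like cells 12 of 20 were higher and 0 lower (5.69% and 6.33% of all genes), with Myc at 1.38. In Il2ra-like against resting-like cells, with Myc at 0.61, 1 of 20 was higher and 0 lower (2.73% and 1.05% of all genes). The median of the list there was 0.12, against 0.56 in Tnfrsf9-like cells, where Myc was at 0.60. Whether these genes followed Myc was not tested.

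The state limit turns a continuous marker score into classes, so the genes were also read over the number of UMIs of the 8 Tnfrsf9-state markers in 1000. The bins, chosen after the data had been seen, held 4086 cells with 0 marker UMIs, 3069 with 1, 2193 with 2 to 3, 662 with 4 to 6 and 235 with 7 or more. Nr4a1 was at 17.6, 20.7, 35.4, 45.01 and 131.6 CPM over these bins, and Egr2 at 9.52, 10.4, 26.0, 43.2 and 88.3 CPM. Over the sets the last 2 bins of Nr4a1 ran from 14.2 to 68.3 CPM and from 53.4 to 266 CPM, and those of Egr2 from 24.8 to 61.4 CPM and from 47.7 to 131 CPM. The sets of the last 2 bins thus overlapped for both genes. For Egr2 the sets with 1 marker UMI (8.96 to 11.5 CPM) and with 2 to 3 (17.2 to 35.4 CPM) did not. Tox was at 130.3, 162, 205, 274 and 307 CPM, with pooled intervals apart at each step up to 4 to 6 markers.

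Myc and Nr4a3 had another shape. Myc stayed at 42.8, 43.4 and 44.2 CPM up to 3 marker UMIs and was at 67.5 and 131.6 CPM beyond. Over the sets these last bins of Myc ran from 29.2 to 104.4 CPM and from 58.2 to 172 CPM. Nr4a3 likewise was at 5.21, 5.07 and 5.88 CPM and then at 18.9 and 52.0 CPM. Cd69 went from 104.8 to 156 CPM and Egr1 from 30.0 to 58.9 CPM over the 5 bins, with overlapping intervals for neighbouring bins at the top. Along the resting markers, cells with 0 and with 5 or more UMIs had Tox at 192 and 70.6 CPM with intervals apart up to 3 to 4 markers (80.2 CPM). Egr2 was at 20.2 and 5.65 CPM, the latter on 2 UMIs, and its intervals overlapped, as did those of Cd69 (114 and 127 CPM) and Myc (45.5 and 48.0 CPM).

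**Figure D3:**
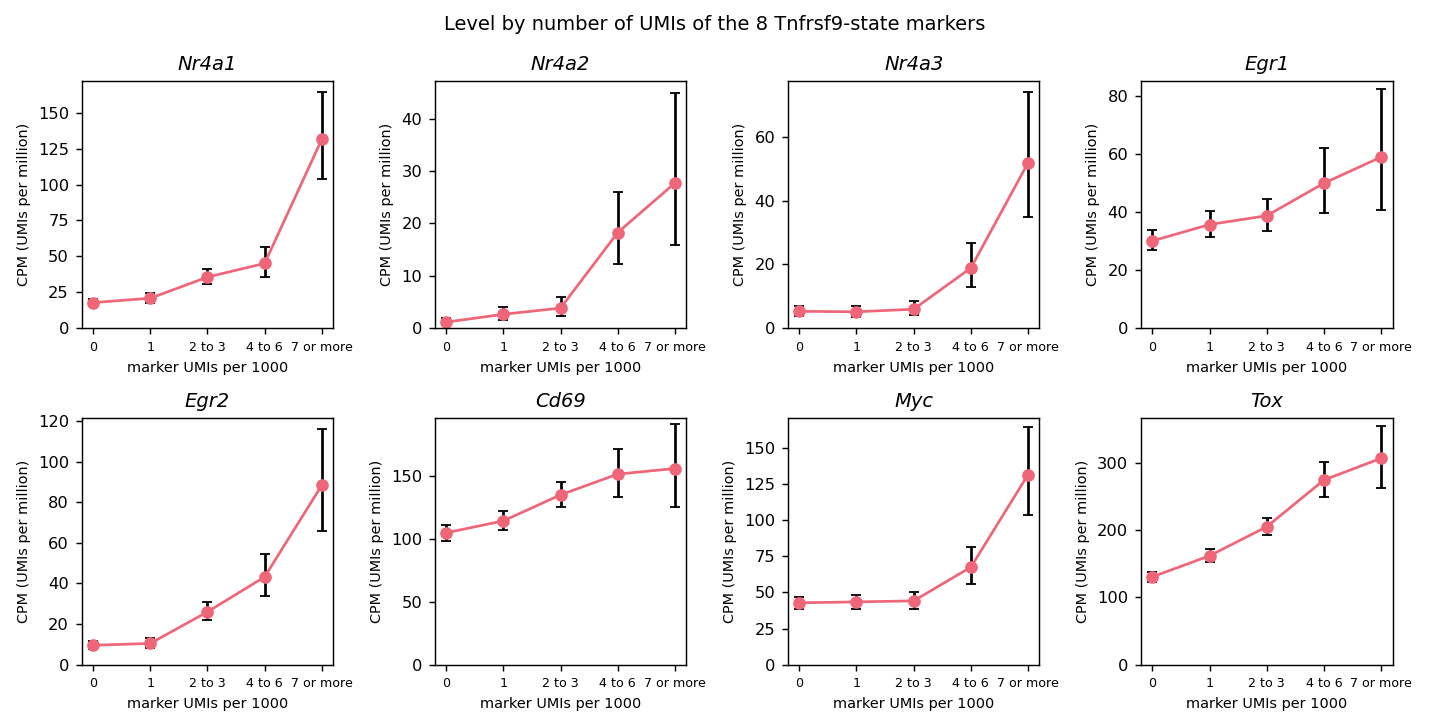
Level of 8 genes (vertical axis, CPM) by the number of UMIs of 8 Tnfrsf9-state markers in a cell thinned to 1000 UMIs (horizontal axis, 5 bins). Points are pooled over the cells of a bin, and bars are exact 95% Poisson intervals for counting error; Myc is level at 42.8 to 44.2 CPM over the first 3 bins, while Tox goes from 130.3 to 205 CPM.

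Whether the genes lay in the same cells was read by splitting all scored cells by a UMI of 1 gene after thinning and measuring the other 8. This reading was added after the data had been seen, and only genes with at least 100 positive cells were used for the split. The largest called ratio was between Egr1 and Egr2. The 347 cells with an Egr1 UMI had 137 CPM of Egr2 against 13.3 CPM in the other cells, 10.3-fold more (95% interval of the log2 ratio 3.04 to 3.68). They also had more Nr4a1 (6.397-fold), Cd69 (2.25-fold) and Tox (1.52-fold), 4 of 8 called higher beside 1.94% of 8982 genes.

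Cells with an Nr4a1 UMI (231) had 6 of 8 higher beside a background of 3.54%. Nr4a3 was 9.31-fold higher, Egr2 6.79-fold, Egr1 3.94-fold, Myc 2.33-fold, Cd69 2.04-fold and Tox 1.502-fold. The 161 cells with an Egr2 UMI had 3 of 8 higher (background 6.39%), Egr1 8.85-fold, Nr4a1 8.52-fold and Cd69 3.51-fold, the last at 400.0 CPM against 114 CPM. Median depth ran from 1902 to 2479 UMIs in the positive groups and from 2114 to 2159 UMIs in the cells without.

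Cd69, not called between Tnfrsf9-like and resting-like cells, was read in the same way. The 1148 cells with a Cd69 UMI had more Egr2 (3.78-fold), Nr4a1 (2.54-fold) and Egr1 (2.17-fold), 3 of 8 beside 0.612% of genes. S1pr1, the receptor that CD69 protein antagonises, was at 129 CPM in these cells and 127 CPM in the others (log2 interval -0.15 to 0.18), and Klf2 at 517 and 522 CPM. In cells with an Egr2 UMI, 2 of 5 egress genes were called lower, beside 0.523% of genes. They were Klf2, at 211 against 526 CPM (log2 interval -1.66 to -0.999), and S1pr4. S1pr1 (log2 interval -0.86 to 0.11), Klf3 and Klf13 were not called. Tnfrsf9-like cells made up 31.1% of cells with an Egr2 UMI and 10.5% of those without. Without Tnfrsf9-like cells 1 of 5 was called lower, Klf2 at 266 against 568 CPM.

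Cells with a Myc or a Tox UMI had fewer calls. The 397 cells with a Myc UMI had 0 of 8 called higher (background 0.98%). Nr4a3 was at 3.29-fold, Nr4a1 at 2.49-fold and Egr2 at 2.25-fold there, each with an interval above 1-fold and higher in 5 of 6 sets. Tox was at 170 and 169 CPM with and without Myc (log2 interval -0.22 to 0.22). The 1606 cells with a Tox UMI had 1 of 8 higher, Egr2 at 1.87-fold, beside 1.19% of genes. Nr4a1 was 1.21-fold higher in 4 of 6 of those sets.

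**Figure D4:**
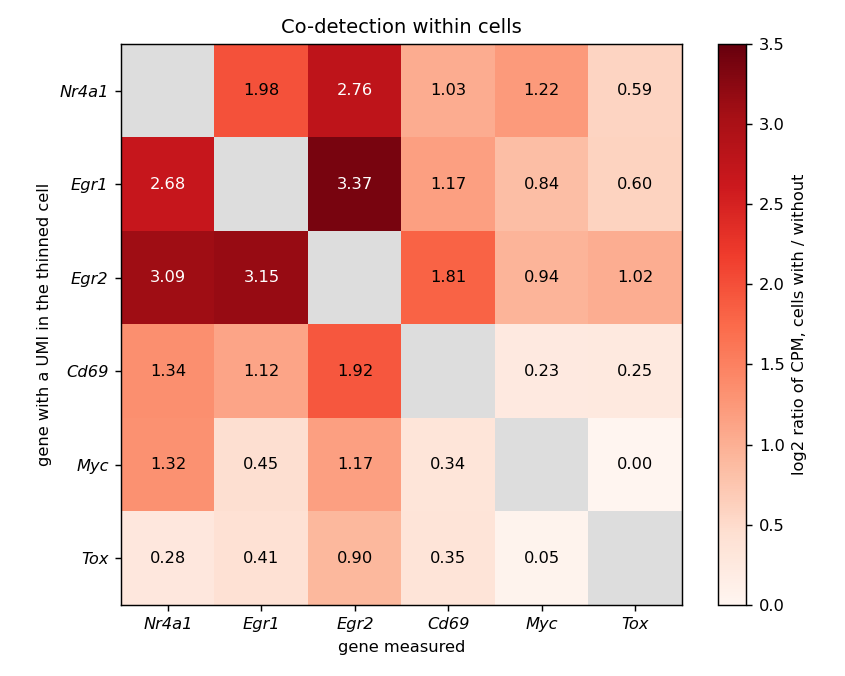
Log2 ratio of CPM of the gene in each column between cells with and without a UMI of the gene in each row, over all scored cells, with colour and number giving the same value. The Nr4a1, Egr1 and Egr2 block runs from 1.98 to 3.37, the Cd69 row is at 1.12 to 1.92 for these 3, and the pair of Myc and Tox is at 0.00 and 0.05.

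The splits were repeated outside the Tnfrsf9-like state. Without those 1105 cells, Egr2 was still 10.4-fold higher in cells with an Egr1 UMI (background 1.82%; 3 of 8 higher). Nr4a1 was 5.59-fold higher in cells with an Egr2 UMI (7.78%; 5 of 8 higher, Nr4a3 on 6 UMIs). Cd69-positive cells had Egr1 at 1.99-fold and Egr2 at 3.64-fold (0.652%), and Nr4a1 at 2.65-fold in 5 of 6 sets, which is not called. For cells with an Nr4a1 UMI, 3 of 8 were called in place of 6 (3.39%): Egr2 at 5.87-fold, Egr1 at 3.68-fold and Cd69 at 1.89-fold. There Nr4a3 was at 4.62-fold in 5 of 6 sets, Myc at 1.55-fold in 4 of 6 and Tox at 1.49-fold in 6 of 6, and these were not called. Bach2, the gene flanked by loxP sites in the cKO mice, was in 259 of all scored cells and in 234 without the Tnfrsf9-like ones. Over all scored cells, 0 of the 9 genes were called higher or lower in them (background 1.67% higher, 0.601% lower). Resting-like cells were 24.7% of cells with a Bach2 UMI and 12.8% of those without. Cells with a Bach2 UMI held from 1 (Egr3) to 95 (Tox) UMIs of the 9 genes, which limits what 0 calls can say.

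Immediate early genes respond to tissue handling as well as to the TCR, so their transcripts were set beside those of the 9 genes. Cells with 5 or more UMIs of the 17 immediate early and stress genes in 1000 (2340 cells) were compared with cells of 2 or fewer (4237 cells), a split added after the data had been seen. Of the 9 genes 5 were higher beside 1.64% of all genes, Egr2 3.66-fold, Nr4a1 2.62-fold, Nr4a3 2.48-fold, Egr1 1.68-fold and Cd69 1.52-fold. Myc (1.31-fold) and Tox (1.27-fold) were not called. Tnfrsf9-like cells made up 15.9% of the first group and 7.84% of the second.

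Within cells of 2 or fewer such UMIs, the contrast of Tnfrsf9-like with resting-like cells (332 and 660 cells) was not the same for all genes. Tox kept a log2 ratio of 1.54 on 207 against 159 UMIs and was the 1 gene of the 9 called, beside 7.79% of 2812 genes higher and 2.67% lower. Egr2 was at 1.79 on 17 against 11 UMIs and Nr4a1 at 0.70 on 24 against 33, both under the 100 UMIs that a call needs. Myc was at -0.28 on 35 against 95 UMIs, the opposite sign, and Nr4a3 at -0.01 on 4 against 9. What part handling and TCR signals had in these transcripts was not tested.

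Calls among single immediate early genes differed between the splits, as did the share of all genes called higher. In cells with an Egr2 UMI, Junb was 2.13-fold and Fos 1.99-fold higher. There 6 of 16 measured genes of that list were called higher, beside 6.39% of all genes. In cells with an Egr1 UMI, 1 of 16 was called (1.94% of all genes), with Fos at 1.28-fold and Junb at 1.65-fold in 5 of 6 sets. In cells with an Nr4a1 UMI 5 of 16 were called (3.54% of all genes). With a Tox, Myc or Cd69 UMI 0 of 16 were (1.19%, 0.98% and 0.612% of all genes), and 0 calls among 16 genes lie near those low shares.

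The genes most like each of the 9 were taken by Pearson correlation of log2(CPM + 1) over 36 points, 6 states in 6 sets, among 4794 genes. The points share libraries and the resting to effector axis, so the values only describe. Tox was most like Zfp36l1 (0.90), Bcl2a1b (0.90, a near copy of the state marker Bcl2a1d with which it can share reads) and Itm2c (0.88). Egr2 was most like Pdcd1 (0.82), Hspa5 (0.79) and Rnf19a (0.76). Nr4a1 was most like Fdx1l (0.78), Pa2g4 (0.75) and Snrpd1 (0.75), and Nr4a3 like Rel (0.70), Rnf11 (0.67) and Nle1 (0.67). Myc was most like the mitochondrial chaperone Hspe1 (0.74), the elongation factor Eef1g (0.73) and the nucleolar protein Nop58 (0.71). Cd69 was most like Srsf3 (0.70), Rsf1 (0.66) and Rrp36 (0.65), and Egr1 like Rpn2 (0.67), Bcap29 (0.65) and mt-Nd4l (0.65). Nr4a2 and Egr3 had too few UMIs to be read this way.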

How the data were processed

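The authors deposited a table of raw UMI counts per gene and cell, and a second table of 10464 cells in natural log units. For 200 genes checked, these values matched ln(1 + 10000 × count / cell total) to within 5.3e-15. FastQC, cutadapt, HISAT2, Cell Ranger and Seurat are named, without versions or roles, per the submitters' processing notes, which give mm10 as build. The labels' protocols name Chromium 3′ v2 libraries, and also list bulk RNA extraction steps whose use here is not stated. No label matches the names of the 10685 cell columns, so all were treated as pooled and the planned edgeR comparison of genotypes was not run.

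Cells with at least 3 different B or myeloid markers, or 50% red cell UMIs, were set aside, and no doublet caller was run. Treg cells were thinned to 1000 UMIs (seed 1), and 310 shallower ones were left out. Per state, ln(1 + UMIs) was summed over markers and expressed as z over all scored cells. A cell took the highest state if z was at least 1 with 2 markers detected, and 393 cells (3.84%) lay within 0.1 of that limit. Levels are unthinned UMIs of a state per 1000000, and their intervals are exact Poisson ones. Intervals of ratios are exact conditional binomial ones, and single-set ratios had 0.5 UMIs added. Intervals cover counting error only (95%), and shares have Clopper-Pearson intervals. Python 3.11.15, numpy 2.4.6, scipy 1.17.1 and matplotlib 3.10.9 were used, and the ratio rule was checked on simulated counts.

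Named genes were the 9, in each list the 4 genes of largest absolute log2 ratio (Tnfrsf9-like against resting-like) with 100 UMIs or more, and the 3 genes most correlated with each of the 9. S1pr4, Fos and further genes in the co-detection were chosen after their values were seen. The 9 genes, the markers and the lists were chosen with earlier results of these data known. Interferon-like and cycling-like comparisons, marker bins, co-detection and the split by stress UMIs were added after the data had been seen. Promoters are from RefSeq (GRCm38.p6). Egr1 has no sequence printed here.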

Additional observations from a re-analysis of the deposited data

How the results depend on the processing

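18 other settings were tried, among them other thinning, other state limits, other totals, other cell filters and leaving out each barcode set. In Tnfrsf9-like against resting-like cells Nr4a1 and Egr2 were called in 17 of 18, Tox in 18 and Myc in 7. The setting restricted to cells with few immediate early and stress UMIs, chosen after seeing the data, gave 1 called gene in place of 4, with Myc at -0.28. The same setting gave 0 of the S100a4-like, 1 of the Ccl5-like and 1 of the Il2ra-like calls against resting-like cells, and 1 against S100a4-like cells. It also leaves fewer UMIs, so fewer genes reach the minimum of 100. The share of all genes called higher in Tnfrsf9-like cells moved as well, from 10.9% to 7.79% in this setting and 5.57% relative to the median gene. For most other settings that share is not given here, so their counts only describe how calls moved. A state limit of 1.5 gave 0 calls for S100a4-like and 1 for Ccl5-like cells, and thinning to 500 UMIs gave 1 for Ccl5-like and 0 for Il2ra-like cells. For Il2ra-like cells, 1 gene was called in place of 2 with another random thinning, with totals without ribosomal and mitochondrial genes, relative to the median gene, without cells of other-type UMIs and the deepest cells, and without shared barcodes. Leaving out each barcode set gave 1 to 2 calls for S100a4-like cells (2 without set 3, where Nr4a1 was lower as well) and 1 to 2 for Il2ra-like cells (1 without set 1 or set 3, where Myc was lost). Without set 5, 5 genes in place of 4 were called in Tnfrsf9-like against S100a4-like cells. At 500 UMIs or a limit of 0.5, Tox took the place of Myc in S100a4-like cells. Other causes were not tested. Of 161 ratios of single genes in Tnfrsf9-like against resting-like cells, 146 moved by less than the SD over the sets and 14 moved further. A called ratio changed sign in 1 case, Myc, and among the genes not called Nr4a3 went to -0.01 in the same cells. Depth limits Nr4a2, Nr4a3 and Egr3, which had under 100 UMIs in that comparison. With a minimum of 20 UMIs in place of 100, Nr4a2 and Nr4a3 were called higher there and Egr3 was not. No paired analysis was possible because the cell columns carry no replicate numbers of the study's samples. States were compared within each barcode set, which every call requires.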

Other observations

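The barcode sets, which cannot be tied to samples, differed in some of these genes. Nr4a1 in Treg cells of sets 1 to 6 was at 23.5, 19.0, 23.2, 30.0, 25.4 and 39.1 CPM. Egr1 was at 34.8, 28.1, 31.6, 44.8, 30.2 and 45.3 CPM, and Tox at 158, 149, 143, 199, 159.6 and 206 CPM. Cd69 was at 110.4, 104, 115, 137, 125 and 119 CPM in the same order. Sets 4 and 6 were the highest of the 6 for Nr4a1, Egr1 and Tox, and for Tox their lower limits (186 and 193 CPM) were above the upper limits of the other sets (155 to 173 CPM).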
